A study of Mus musculus with 12 samples.

Results

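The mitochondrial ribosomal protein genes were followed through retinas injured with NMDA, an agonist of a glutamate receptor that overexcites retinal neurons. Members were all genes of the deposited gene table whose symbol is Mrpl or Mrps followed by a number and an optional letter, with the pseudogenes marked -ps left out. This gave 78 of 55487 genes, 49 Mrpl genes of the large subunit and 29 Mrps genes, spread over 17 chromosomes. The libraries came from retinas of C57BL/6J wild type mice (WT), of mice given shPax6 and of Jnk3-/- mice (JNK3 KO). Each kind of retina received an intravitreal injection of 1 μL of PBS (WT PBS, sh*Pax6* PBS, JNK3 KO PBS) or 1 μL of 40 mM NMDA in PBS, that is 40 nmol (WT NMDA, sh*Pax6* NMDA, JNK3 KO NMDA). The shPax6 construct is an shRNA against *Pax6* driven by a U6 promoter, carried with GFP in AAV2.7m8, of which 2 μL was injected. U6 is active in any cell that the virus enters. All 6 groups were sequenced as 2 libraries of polyA RNA. The study's methods give more than 3 retinas as the source of RNA, without saying whether they were pooled or how many went into each library. The labels of the WT and JNK3 KO libraries name no virus of their own, and no library with the scrambled shRNA was analysed here, so infection and knockdown cannot be told apart in sh*Pax6*. The labels give no age and no time of collection per library.

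Mitochondria hold their own ribosome, which translates the few proteins encoded in mitochondrial DNA, all of them core subunits of the respiratory chain and ATP synthase. Its RNAs come from the mitochondrial genome, but every protein of the particle is encoded in the nucleus, made on cytosolic ribosomes and imported, so the particle depends on a large set of nuclear genes. Many of its proteins have a counterpart in bacterial ribosomes, and others were added in the mitochondrial lineage. The retina is among the tissues with the highest demand for oxidative energy, and inherited loss of mitochondrial translation often affects the nervous system and vision.

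What the members share was first looked for in their promoters. RefSeq promoter windows of 300 bases on GRCm38.p6 were found for 69 of the 78 members, 75 windows in all since some genes have more than one start. Their sequences carried the motif of the ETS family, CCGGAAG, in 34.7% of windows, against 15.7% of the windows of all tested genes and 8.86% of all 32851 windows of this length. AAGATGGCG, bound by YY1, was in 10.7% of member windows against 2.62% of the windows of tested genes and 1.40% of all windows. The core of the NRF1 site, GCGCATGC, was in 10.7% against 4.72% and 2.71%. NRF1 is a regulator of nuclear genes for mitochondrial proteins. The SP and KLF box, GGGCGG, was in 52.0% of member windows, against 59.7% in tested genes and 35.7% in all. Each motif was searched on both strands, and neighbouring matches may overlap, as GGGCGG and CCGGAAG do in *Mrpl17*. Member windows had a median GC content of 58.7% and 21 CpG dinucleotides, close to the 60.3% and 19 of tested genes, whereas all windows had 52.7% and 7. A match is a description of letters and not a binding site. Printed here, 5′ to 3′ on the strand of the gene with motif matches in capitals, are a pair of members that leave a shared start region in opposite directions (*Mrpl46* and *Mrps11*), the members with the largest rise after NMDA in WT (*Mrps25* and *Mrpl52*), and both genes whose windows held 3 of the 4 motifs (*Mrps18b* and *Mrpl17*).
*Mrpl46* (chr7:78783040-78783339, - strand): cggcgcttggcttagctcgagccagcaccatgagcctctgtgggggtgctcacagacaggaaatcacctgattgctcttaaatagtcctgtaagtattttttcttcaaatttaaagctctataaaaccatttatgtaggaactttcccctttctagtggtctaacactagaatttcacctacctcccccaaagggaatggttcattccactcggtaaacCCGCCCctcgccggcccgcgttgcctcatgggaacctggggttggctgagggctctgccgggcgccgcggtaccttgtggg
*Mrps11* (chr7:78782881-78783180, + strand): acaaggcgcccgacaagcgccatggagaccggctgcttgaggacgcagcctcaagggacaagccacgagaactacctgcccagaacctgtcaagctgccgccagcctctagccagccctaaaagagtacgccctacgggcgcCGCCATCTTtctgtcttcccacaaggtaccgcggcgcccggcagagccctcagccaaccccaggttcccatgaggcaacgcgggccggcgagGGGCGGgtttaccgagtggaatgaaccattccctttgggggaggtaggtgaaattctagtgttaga
*Mrps25* (chr6:92183974-92184273, - strand): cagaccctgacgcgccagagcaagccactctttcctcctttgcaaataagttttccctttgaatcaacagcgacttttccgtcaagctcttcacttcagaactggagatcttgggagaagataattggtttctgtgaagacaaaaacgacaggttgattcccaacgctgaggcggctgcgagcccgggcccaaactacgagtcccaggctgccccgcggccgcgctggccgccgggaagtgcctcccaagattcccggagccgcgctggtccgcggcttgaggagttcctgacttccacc
*Mrpl52* (chr14:54426659-54426958, + strand): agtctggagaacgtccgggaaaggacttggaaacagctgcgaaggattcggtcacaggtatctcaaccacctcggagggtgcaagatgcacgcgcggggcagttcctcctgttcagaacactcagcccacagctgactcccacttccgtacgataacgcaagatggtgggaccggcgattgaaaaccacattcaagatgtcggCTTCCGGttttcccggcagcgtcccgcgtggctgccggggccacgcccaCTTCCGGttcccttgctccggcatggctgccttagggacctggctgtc
*Mrps18b* (chr17:35916391-35916690, - strand): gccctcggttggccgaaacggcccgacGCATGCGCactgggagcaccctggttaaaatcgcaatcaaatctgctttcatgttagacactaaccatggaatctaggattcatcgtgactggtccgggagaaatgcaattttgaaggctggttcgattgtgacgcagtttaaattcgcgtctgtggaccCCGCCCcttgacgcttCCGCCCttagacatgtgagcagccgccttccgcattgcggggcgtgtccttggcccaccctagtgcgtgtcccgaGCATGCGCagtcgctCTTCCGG
*Mrpl17* (chr7:105811038-105811337, - strand): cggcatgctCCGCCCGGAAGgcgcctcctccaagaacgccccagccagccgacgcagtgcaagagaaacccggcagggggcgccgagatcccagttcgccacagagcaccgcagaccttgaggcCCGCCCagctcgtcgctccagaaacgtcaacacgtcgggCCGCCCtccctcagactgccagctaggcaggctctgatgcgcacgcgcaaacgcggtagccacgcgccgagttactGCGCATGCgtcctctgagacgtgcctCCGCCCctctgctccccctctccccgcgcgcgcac
The window of *Mrps25*, the member with the largest rise in WT, held none of the 4 motifs. Members with and without each motif had positive medians after NMDA in WT, and the gaps between them were not tested. With CCGGAAG the median log2 fold change was 1.44 over 26 members, and without it 1.19 over 43. For GCGCATGC it was 1.19 over 8 members with it and 1.32 over 61 without. For AAGATGGCG it was 1.10 over 8 and 1.32 over 61, and for GGGCGG 1.34 over 34 and 1.23 over 35.

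The libraries set limits on what follows. The files hold FPKM, a fragment count scaled to transcript length and library size, so the reads behind a value are unknown, and 2 libraries a group limit the precision. FPKM summed over all genes came to 805627 and 820180 in the WT NMDA libraries and to between 541210 and 576922 in the other 10 libraries, so the WT NMDA pair stood apart. All values for NMDA in WT rest on this pair and cannot be given without it. In the neutrophil list of 5 genes the summed FPKM was 188 to 211 in WT PBS and 1926 to 1968 in WT NMDA, against 57.3 to 66.8 in sh*Pax6* NMDA and 11.0 to 12.4 in JNK3 KO NMDA, with no marker of the list at 0 in either WT group and 1 at 0 in each of the other 4 groups. The erythrocyte list of 3 genes was at 64.5 to 73.2 in WT PBS and 422 to 428 in WT NMDA. The rod list of 6 genes, the mark of retina, stood between 19630 and 34540 in all 12 libraries, and the retinal ganglion cell (RGC) list of 6 genes fell from 482 to 498 in WT PBS to 286 to 307 in WT NMDA, with 5 of 6 genes lower by the test used below. The RGC fall was no mark of the WT pair, since the list went from 141 to 143 down to 36.4 to 43.8 in sh*Pax6*, which thus stood below WT already with PBS, and from 461 to 499.6 down to 112 to 114 in JNK3 KO. The microglia and macrophage list of 6 genes stood at 119 to 129 and 199 to 201 in WT, at 53.7 to 56.0 and 353 to 354 in sh*Pax6*, and at 95.9 to 104 and 81.6 to 82.4 in JNK3 KO, with PBS and NMDA in that order. The part of these cells in the members' values was not tested, and in whole retina a change in cell number and a change in RNA per cell cannot be told apart. *Pax6* had 173 and 177 FPKM in the WT PBS libraries, against 94.6 and 92.8 in those of sh*Pax6* PBS. After NMDA it had 55.4 and 53.8 in WT, against 67.5 and 58.7 in sh*Pax6*, so it was not lower in the libraries labelled sh*Pax6* NMDA. *Mapk10*, which encodes JNK3, had 42.8 and 50.7 FPKM in the WT PBS libraries, against 9.47 and 8.75 in those of JNK3 KO PBS, so reads were still assigned to the deleted gene, and 20.9 and 21.3 in sh*Pax6* PBS. After NMDA it had 8.98 and 6.00 in WT, against 6.65 and 13.8 in JNK3 KO, which overlap. The targeted genes thus separate the genotypes under PBS but give no check of the labels of the NMDA libraries.

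Every member was expressed in the PBS-injected WT retina. In WT PBS the median member stood at 26.47 and 27.98 FPKM in the 2 libraries, with a range from 3.26 to 82.5 and from 4.04 to 92.1. The 5 highest were *Mrps21* (mean 87.3 FPKM, the counterpart of bacterial S21), *Mrpl52* (78.7, specific to mitochondria), *Mrpl54* (76.1, at the base of the stalk that binds elongation factors), *Mrpl58* (65.7, a peptidyl-tRNA hydrolase that can free stalled ribosomes) and *Mrpl20* (61.6, an early binder of the large rRNA in bacteria). The 3 lowest were *Mrpl35* (7.21 FPKM), *Mrps30* (6.78) and *Mrpl1* (3.65), whose product forms the L1 stalk. FPKM is a level per length, yet the 5 highest members had transcript lengths of 410 to 745 bases and the 3 lowest of 2097 to 3336. The part of length in this order was not tested, so the order between genes is a description. The order of the members held across groups. Spearman's rho of the group means over the 78 members, as a description, lay between 0.854 (WT NMDA and sh*Pax6* PBS) and 0.973 (WT PBS and JNK3 KO PBS). Replicates lay closer in some groups than in others. Over members, the absolute log2 gap between both libraries of WT PBS, and of JNK3 KO NMDA, had a median of 0.10. The widest median gap was that of sh*Pax6* NMDA, at 0.28, against 0.25 over all genes. It was wider than the members' median log2 fold change after NMDA in sh*Pax6*, 0.18.

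**Figure D1:**
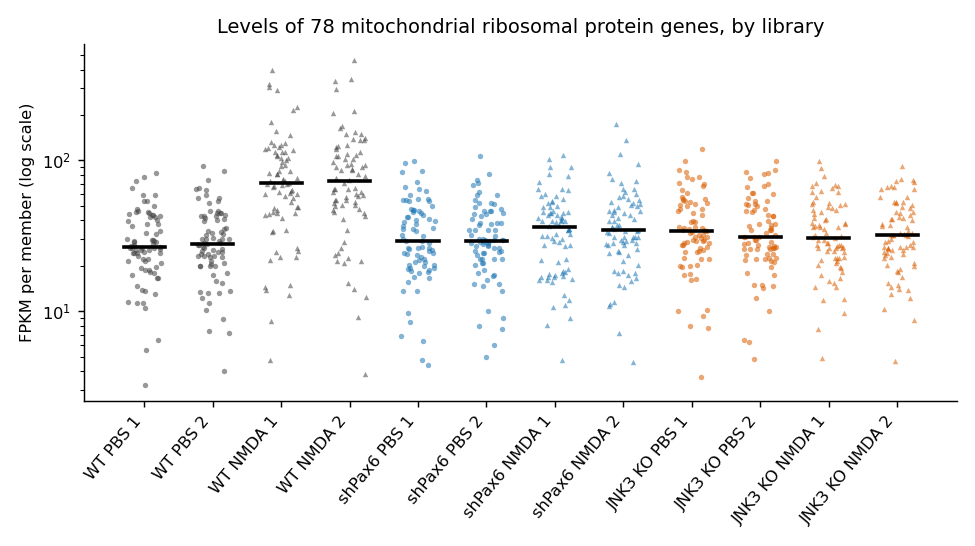
FPKM of the 78 members on a log axis in each of the 12 libraries, with circles for PBS, triangles for NMDA and a bar at the median of the library. The medians of the WT NMDA libraries, 70.3 and 72.8 FPKM, lie above those of the other 10, which run from 26.5 to 35.9.

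The first comparison asked how NMDA moved these genes in the WT retina. The members rose almost as a whole. The FPKM of the 78 genes summed to 2406 and 2504 in the WT PBS libraries and to 6893 and 7222 in the WT NMDA libraries. Their share of all FPKM went from 0.445% and 0.454% to 0.856% and 0.881%. Both pairs of sums do not overlap, and no other group reached a sum above 3198. Across all 16471 tested genes, limma's test on log2(FPKM + 0.1) with Benjamini-Hochberg adjustment called 72 of 78 members higher at an adjusted p under 0.05, where 26.0% of all genes were called higher. None was called lower, also none at an unadjusted p under 0.05, where 33.8% of all genes were called lower at the adjusted threshold. The median log2 fold change was 1.34 over the members and -0.09 over all tested genes, and 54 members more than doubled, as did 17.9% of all genes. For 74 members both NMDA libraries lay above both PBS libraries, as for 36.9% of all genes, and for 0 members below, as for 44.3% of all genes. Members also drew apart, as the standard deviation of their log2 values went from 0.83 and 0.84 to 1.17 and 1.20.

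*Mrps25* (ENSMUSG00000014551, chr6:92169525-92184033, - strand, GRCm38), a small subunit protein without a bacterial counterpart, rose the most. Its FPKM was 58.8 and 63.2 in the PBS libraries, against 321 and 348 in the NMDA libraries, so the log2 fold change was 2.45 (SE 0.14, adjusted p = 7.96e-07 in limma). *Mrpl52* (chr14:54426909-54429756, + strand) had 73.0 and 84.5 FPKM with PBS, against 397 and 461 with NMDA, a log2 fold change of 2.45 (SE 0.22, adjusted p = 1.29e-05 in limma), and became the highest member in both WT NMDA libraries. *Mrps16* (chr14:20389304-20393634, - strand), the counterpart of bacterial S16 and the first mitoribosomal gene linked to a human translation defect, had 22.1 and 17.96 FPKM with PBS, against 93.0 and 78.5 with NMDA, a log2 fold change of 2.10 (SE 0.27, adjusted p = 1.38e-04 in limma). In all 3 genes the groups lie far apart. Of the 5 highest members in the PBS-injected WT retina, all rose, among them *Mrps21*, whose FPKM moved from 82.5 and 92.1 up to 305 and 335, and *Mrpl54*, whose FPKM moved from 77.6 and 74.6 up to 294 and 298. Their log2 fold changes were 1.87 (SE 0.14) and 1.96 (SE 0.12). *Mrps30*, among the 3 lowest, went from 6.44 and 7.12 to 13.9 and 12.4 FPKM, a rise of 0.95 on the log2 scale (SE 0.17, adjusted p = 9.97e-04 in limma).

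The 6 members that did not pass the test in WT were *Mrps2*, *Mrpl50*, *Mrpl1*, *Mrpl19*, *Mrpl47* and *Mrpl35*. *Mrps2*, the counterpart of bacterial S2, had 12.9 and 12.3 FPKM in the PBS libraries and 12.8 and 14.1 with NMDA, and its groups overlap. *Mrpl1* stood at 3.26 and 4.04 and at 4.76 and 3.84 FPKM, and *Mrpl35* at 5.56 and 8.86 and at 8.59 and 15.3 FPKM. The log2 fold changes of the 6 ran from 0.09 to 0.70, all positive. Their spliced lengths ran from 1661 to 3291 bases, all above the members' median.

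By structure, members called higher were found in every list of the particle. These counts stand against the 26.0% of all tested genes called higher. In the large subunit, 26 of 30 proteins shared with bacteria and 19 of 20 specific to mitochondria (a list that holds *Mrps30*) were called higher, with median log2 fold changes of 1.35 and 1.34. In the small subunit these were 17 of 18, with a median of 1.37, and 9 of 9, with a median of 1.32. The list of 18 holds *Mrps18a* (1.44, called higher), which resolved mammalian particles place in the large subunit. All 5 genes of the stalk that recruits elongation factors were called higher (median 1.44, with *Mrpl12*, the protein at the tip of the stalk, at 1.95). So were all 8 genes of the central protuberance (median 1.34, with *Mrpl58* at 1.70), and 6 of 7 genes around the exit tunnel, where the nascent chain leaves towards the inner membrane (median 1.22, with *Mrpl23* at 2.09 and the membrane anchor *Mrpl45* at 0.89). Of 13 genes linked to human disorders of mitochondrial translation 12 were called higher (median 1.10). *Mrps36*, which carries the name but serves the oxoglutarate dehydrogenase complex rather than the ribosome, was also called higher, at 1.19.

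Transcript length moved with this result. Spliced lengths of the members ran from 410 bases (*Mrpl52*) to 3336 bases (*Mrps30*), with a median of 983, against a median of 2190 over tested genes. Across the 78 members, Spearman's rho of length and WT log2 fold change was -0.71, and across all tested genes -0.57. These are descriptions over genes of the same 4 libraries. Below 1000 bases 41 of 41 members were called higher, with a median log2 fold change of 1.56, while of all 2947 genes of that length 40.9% were called higher, with a median of 1.03. Between 1000 and 2000 bases 28 of 29 members were called higher, with a median of 0.97, against 46.5% and 0.53 over 4526 genes, and between 2000 and 4000 bases 3 of 8, with a median of 0.53, against 15.2% and -0.32 over 5976 genes. No member was longer, and genes above 4000 bases had a median of -1.17. After each library's trend on length was removed, 53 members were called higher and 1 lower (*Mrps5*), with a median of 0.49, where 20.8% of all genes were called higher. After every library was scaled to the same sum (TPM), 62 were called higher and 2 lower, with a median of 0.77 (2 lower being *Mrps2* and *Mrpl50*), where 12.5% of genes were called higher and the median of all genes moved to -0.68.

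**Figure D2:**
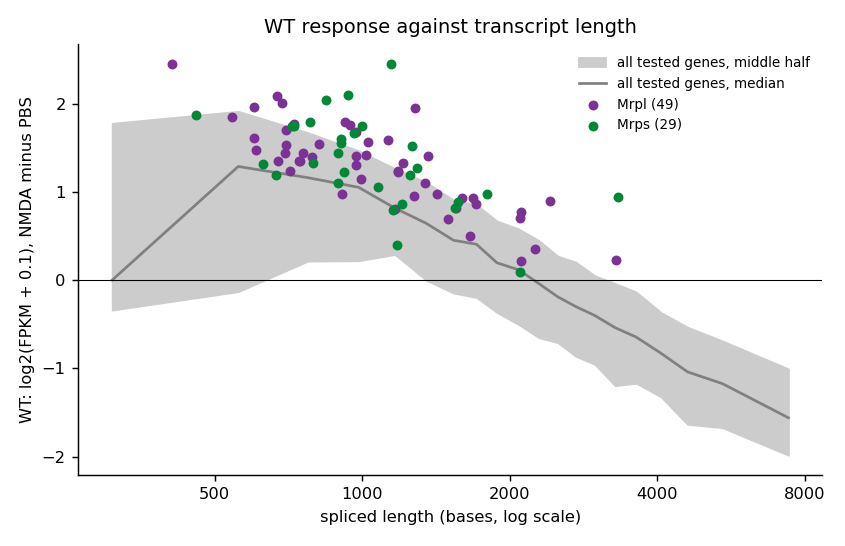
Log2 fold change of NMDA against PBS in WT (vertical axis, on log2(FPKM + 0.1)) against spliced length in bases (log axis) for the 49 Mrpl and 29 Mrps genes, over the median and quartiles of all tested genes in 20 bins of length. Members follow the downward course of all genes with length, and their median lies above it in each of the 3 length classes they occupy.

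The gene values sum over several transcripts, and not all of them encode the protein. The transcript table lists 343 transcripts for the members, of which GENCODE M21 types 170 as protein-coding, 88 as retained intron, 61 as processed transcript without a reading frame and 24 as targets of nonsense-mediated decay. Protein-coding transcripts made up 78.1% and 78.8% of member FPKM in WT PBS and 77.8% and 76.8% in WT NMDA, so the mix as a whole moved little. For 15 members, however, less than 50% of the FPKM in WT PBS was protein-coding. *Mrps25* was one of these. Its retained-intron transcripts held 81.8% of its FPKM in WT PBS and 93.6% in WT NMDA. Its only protein-coding transcript had 12.1 and 10.1 FPKM in the PBS libraries and 22.4 and 20.2 with NMDA. In a fit on protein-coding transcripts alone its log2 fold change was 0.94 (adjusted p = 2.79e-04 in limma), where the gene value gave 2.45. *Mrps16* was protein-coding for 9.31% of its FPKM in WT PBS, 1.91 and 1.82 FPKM, and 4.90% in WT NMDA, 3.99 and 4.41 FPKM, and its log2 fold change was 1.13 (adjusted p = 0.00107 in limma) instead of 2.10. The rest was a transcript of 801 bases typed as processed. *Mrpl52* was 93.1% protein-coding and kept its log2 fold change, at 2.45.

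On protein-coding transcripts alone 65 members were called higher and 1 lower, with a median of 1.27. Over all 13465 genes of that fit the median was -0.23, and the share of them called was not computed. The lower member was *Mrps5*, the counterpart of bacterial S5, chosen for mention after its values were seen. Its protein-coding FPKM had a mean of 18.4 in WT PBS and 8.30 in WT NMDA, a log2 fold change of -1.21 (adjusted p = 0.00597 in limma), although the gene as a whole was called higher at 0.40. *Mrps26*, also chosen after its values were seen, stood at 1.52 as a gene, while its protein-coding FPKM was 2.43 and 2.30 with PBS and 2.23 and 2.49 with NMDA, which overlap. How the estimator split reads among overlapping transcripts was not tested.

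**Figure D3:**
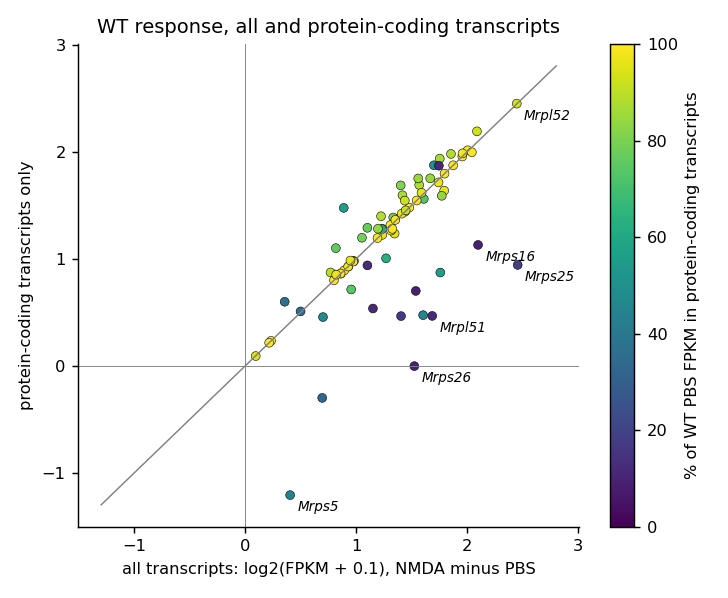
Log2 fold change of NMDA against PBS in WT from all transcripts (horizontal axis) and from protein-coding transcripts alone (vertical axis) for the 78 members, coloured by the percent of WT PBS FPKM that is protein-coding, with the line of equality. Members of high protein-coding share lie along the line, while 12 of the 15 under 50%, among them *Mrps16*, *Mrps25*, *Mrpl51* and *Mrps26*, lie below it.

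In sh*Pax6* retinas NMDA moved the members far less. The summed FPKM was 2722 and 2609 with PBS and 2989 and 3198 with NMDA, a small step in which the libraries do not overlap. Limma called 14 members higher, 17.9% of them, where 19.1% of all genes were called higher, and 1 member lower, where 11.0% of all genes were called lower. The share of members that rose was thus near that of all genes. The median log2 fold change was 0.18 over members and 0.10 over all genes. Both NMDA libraries lay above both PBS libraries for 33 members, where 35.0% of all genes did so, and below for 4, where 22.0% did so. More than a doubling was seen for 3 members, and the share of all genes that doubled in sh*Pax6* was not computed.

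These 3 were *Mrps25*, *Mrpl19* and *Mrpl52*. *Mrps25* had 45.5 and 34.6 FPKM with PBS, against 89.9 and 94.0 with NMDA, a log2 fold change of 1.21 (SE 0.14, adjusted p = 2.60e-04 in limma). *Mrpl19*, the counterpart of bacterial L19 at the interface of the subunits, had 6.35 and 6.00 FPKM with PBS, against 16.1 and 10.8 with NMDA, a log2 fold change of 1.08 (SE 0.33, adjusted p = 0.0344 in limma). Its protein-coding transcript had a log2 fold change of -0.22 (adjusted p = 0.425 in limma). *Mrpl52* had 72.2 and 59.3 FPKM with PBS, against 101.4 and 173 with NMDA, a log2 fold change of 1.02 (SE 0.22, adjusted p = 0.00793 in limma), and the higher library owes 60.6 FPKM to a retained-intron transcript of 134 bases that was at 0 in 10 of the 12 libraries. On protein-coding transcripts its log2 fold change was 0.67 (adjusted p = 0.00766 in limma). The member that fell was *Mrpl49* (chr19:6053622-6057785, - strand), a mitochondria-specific protein, whose FPKM was 64.9 and 61.6 with PBS and 44.8 and 50.5 with NMDA, a log2 fold change of -0.41 (SE 0.09, adjusted p = 0.00629 in limma).

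By structure the 14 that rose were 8 of 30 shared and 4 of 20 mitochondria-specific proteins of the large subunit, and 1 of 18 shared and 1 of 9 mitochondria-specific proteins of the small subunit, that is 12 of 49 Mrpl and 2 of 29 Mrps genes by symbol. Since the 14 were near the 19.1% of all genes called higher, this split only describes the calls and marks no subunit. Leaving out 1 library moved the count from 14 to between 7 (without sh*Pax6* PBS replicate 1) and 17. With the spread taken from the 4 sh*Pax6* libraries alone it was 0, and with the length trend removed it was 3 higher and 8 lower, and the members' median turned to -0.03. The shares of all genes called in these settings were not computed.

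In JNK3 KO retinas no member was called after NMDA. The summed FPKM was 3046 and 2881 with PBS and 2806 and 2792 with NMDA. The 2 pairs do not overlap, with NMDA the lower. Limma called 0 members higher, where 4.33% of all genes were called higher, and 0 lower, where 6.10% were called lower. At an unadjusted p under 0.05, 3 members were higher, where 11.1% of all genes were higher, and 6 lower, where 13.1% were lower. The median log2 fold change was -0.08 over members and -0.02 over all genes, with 29 members positive and 49 negative, and with a range from -0.48 (*Mrps26*) to 0.76 (*Mrpl19*). Both NMDA libraries lay below both PBS libraries for 30 members, where 32.8% of all genes did so, and above for 9, where 28.7% did so. *Mrpl19* had 10.0 and 6.26 FPKM with PBS and 11.98 and 15.3 with NMDA, without overlap, but its adjusted p was 0.193 in limma.

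**Figure D4:**
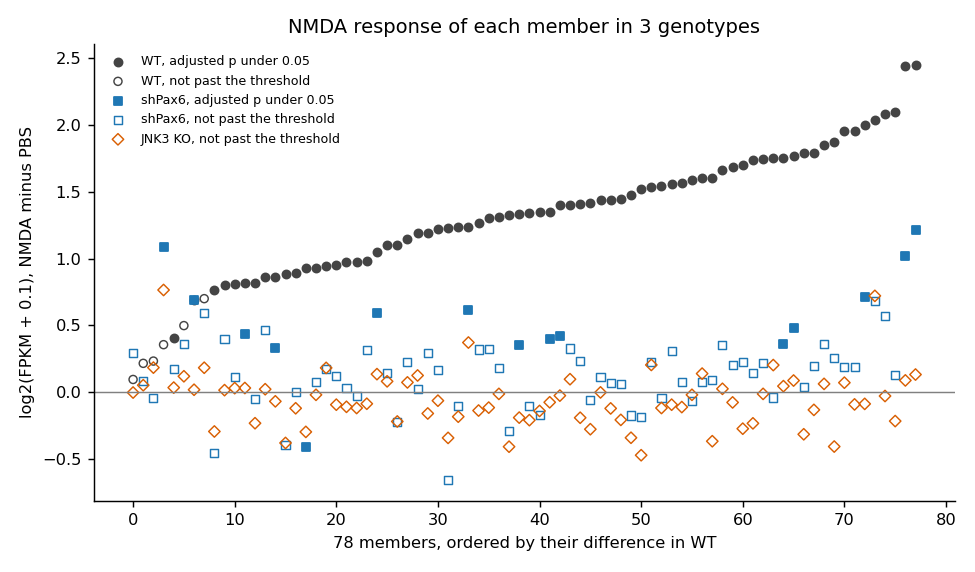
Log2 fold change of NMDA against PBS (on log2(FPKM + 0.1)) for each of the 78 members in WT, sh*Pax6* and JNK3 KO retinas, ordered by the value in WT, with filled symbols for an adjusted p under 0.05. The WT points rise from 0.09 to 2.45 along the order, while those of sh*Pax6* and JNK3 KO stay between -0.66 and 1.21 throughout.

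Whether the response itself differed between genotypes was tested as a difference of differences in the same fit. The response of WT exceeded that of sh*Pax6* for 67 members, where 18.3% of all genes had the larger response in WT, and fell short of it for 0 members (0 also at an unadjusted p under 0.05), where 31.4% of all genes did. The median difference was 1.27 on the log2 scale over members and -0.28 over all genes. Against JNK3 KO the response of WT was larger for 70 members, where 23.5% of all genes had the larger response in WT, and smaller for 0 (0 also at an unadjusted p under 0.05), where 27.9% did. The median difference was 1.43 over members and -0.04 over all genes. With the length trend removed the members' medians became 0.67 against sh*Pax6* (all genes -0.17) and 0.50 against JNK3 KO (all genes 0.03). With TPM scaling they became 0.75 (all genes -0.82) and 0.83 (all genes -0.64). Both differences use the same WT libraries and so are not independent.

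The largest differences from sh*Pax6* were those of *Mrps16* (1.97, SE 0.39, adjusted p = 0.00266), *Mrps11* (1.89, SE 0.38, adjusted p = 0.00295) and *Mrps18b* (1.79, SE 0.20, adjusted p = 1.15e-04), all by limma. *Mrps16* had 22.1 and 23.6 FPKM in sh*Pax6* with PBS and 17.3 and 36.1 with NMDA, which overlap. Its protein-coding FPKM was 2.15 and 2.12, then 2.18 and 2.97, in sh*Pax6*. In WT it was 1.91 and 1.82, then 3.99 and 4.41. *Mrps11*, the counterpart of bacterial S11, had 38.1 and 34.7 FPKM in sh*Pax6* with PBS and 15.7 and 33.7 with NMDA, a spread that its WT libraries (26.4 and 24.6, then 60.2 and 59.5) did not have. Of its sh*Pax6* PBS values, 17.8 and 6.15 FPKM were a retained-intron transcript. *Mrps18b*, a paralog of bacterial S18, went from 18.7 and 23.2 to 69.8 and 71.1 FPKM in WT, while its 4 sh*Pax6* libraries stood between 17.6 and 23.5. The largest differences from JNK3 KO were those of *Mrpl52* (2.36, SE 0.31, adjusted p = 2.20e-04), *Mrps25* (2.32, SE 0.20, adjusted p = 1.54e-05) and *Mrps16* (2.31, SE 0.39, adjusted p = 8.92e-04). In JNK3 KO, *Mrps25* had 78.1 and 61.2 FPKM with PBS and 78.8 and 72.7 with NMDA, which overlap. On protein-coding transcripts the difference of *Mrps25* from sh*Pax6* was 0.13 (adjusted p = 0.593 in limma), where the gene value gave 1.24, and its difference from JNK3 KO was 0.55. With the length trend removed, WT exceeded sh*Pax6* for 38 members and JNK3 KO for 31. The share of all genes called in these 2 differences with the trend removed was not computed, so the counts have no background beside them.

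**Figure D5:**
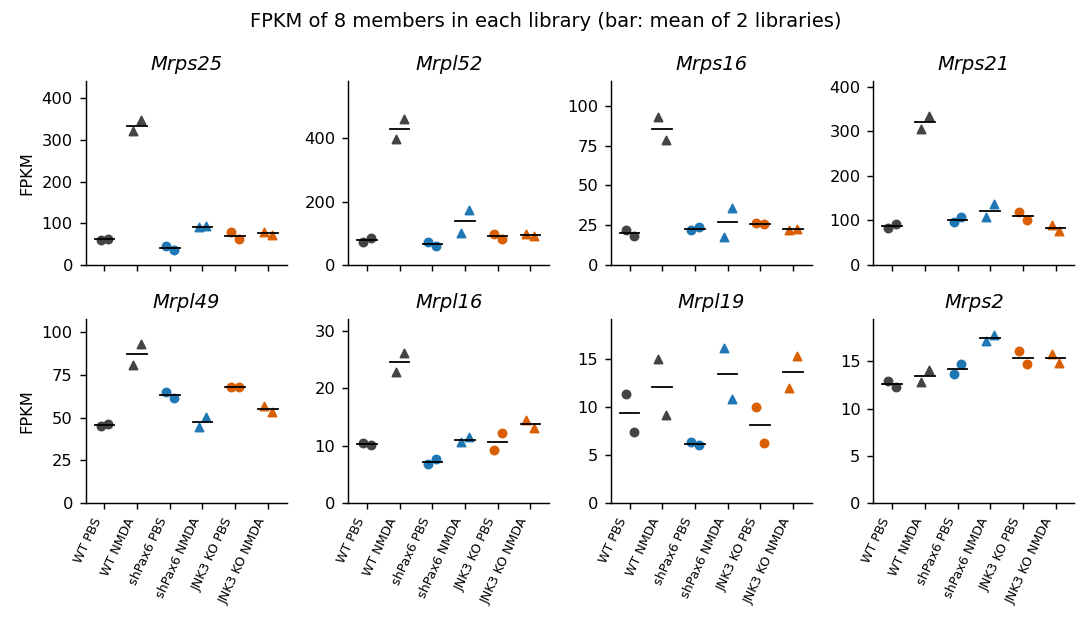
FPKM of 8 members in each library on axes that start at 0, with circles for PBS, triangles for NMDA and a bar at the mean of the 2 libraries of a group. In *Mrps25*, *Mrpl52*, *Mrps16* and *Mrps21* the WT NMDA libraries stand above all others, in *Mrpl49* and *Mrpl16* they do so by less, and in *Mrpl19* and *Mrps2* they lie among the rest.

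Without NMDA, sh*Pax6* and WT retinas differed in few members. Limma called 8 members higher in sh*Pax6* PBS than in WT PBS, where 5.36% of all genes were called higher, and 2 lower, where 11.2% were called lower, with a median log2 fold change of 0.10 over members and -0.06 over all genes. Both sh*Pax6* libraries lay above both WT libraries for 31 members, where 22.3% of all genes did so, and below for 10, where 35.1% did so. *Mrps33*, specific to the mitochondrial small subunit, had 53.4 and 58.8 FPKM in WT, against 98.9 and 70.7 in sh*Pax6*, a log2 fold change of 0.58 (SE 0.14, adjusted p = 0.0231 in limma). *Mrpl34*, the counterpart of bacterial L34, stood at 43.4 and 40.3 and at 66.2 and 58.5 FPKM (0.57, SE 0.10, adjusted p = 0.00630 in limma), and *Mrps22*, a mitochondria-specific protein linked to a human disorder, at 14.6 and 13.3 and at 20.4 and 20.9 FPKM (0.56, SE 0.15, adjusted p = 0.0373 in limma). The 2 that were lower were *Mrps25*, at 45.5 and 34.6 FPKM in sh*Pax6* (-0.62, SE 0.14, adjusted p = 0.0172 in limma), and *Mrpl16*, the counterpart of bacterial L16, at 10.5 and 10.2 FPKM in WT, against 6.82 and 7.61 in sh*Pax6* (-0.52, SE 0.15, adjusted p = 0.0413 in limma). Leaving out 1 library moved the count of higher members to between 1 (without either WT PBS library) and 14 (without sh*Pax6* NMDA replicate 1; 13 without replicate 2), and that of lower members to between 0 and 2. Without sh*Pax6* PBS replicate 1 or either JNK3 KO NMDA library 3 were higher.

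JNK3 KO retinas with PBS stood slightly above WT retinas with PBS across the group. The members' summed FPKM was 2406 and 2504 in WT PBS and 3046 and 2881 in JNK3 KO PBS. Both JNK3 KO libraries lay above both WT libraries for 57 members, where 27.0% of all genes did so, and below for 0, where 26.7% did so. The median log2 fold change was 0.26 over members and 0.00 over all genes. Limma called 1 member higher, where 1.10% of all genes were called higher, and 0 lower, where 0.407% were called lower. At an unadjusted p under 0.05, 36 members were higher, where 9.16% of all genes were higher, and 0 were lower, where 5.97% were lower. The member called was *Mrpl49*, with 45.0 and 46.3 FPKM in WT, against 67.8 and 68.0 in JNK3 KO, a log2 fold change of 0.57 (SE 0.09, adjusted p = 0.0197 in limma). It was not called when any 1 of 6 libraries was left out. Length moves with this comparison too, since Spearman's rho of length and log2 fold change was -0.36 over all tested genes (-0.09 over members), and with the length trend removed the members' median was 0.15 and none was called.

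Other genes of mitochondrial translation, from lists by function, did not all follow the members in WT after NMDA, and their counts stand against the 26.0% of all genes called higher and the 33.8% called lower. The 5 mitoribosomal proteins with other names were all called higher, with a median log2 fold change of 1.72, from *Ptcd3* at 0.65 to *Gadd45gip1* at 1.87. Of 21 genes for assembly of the particle and modification of its rRNA 15 were called higher and 1 lower (median 0.82), led by *Malsu1*, an assembly factor of the large subunit, at 1.89, with *Gtpbp10*, a GTPase of large subunit assembly, at -0.60. Of 14 translation factors 5 were called higher and 4 lower (median 0.14), shares not far from those of all genes. *Slirp*, which with LRPPRC stabilises mitochondrial mRNAs, was at 1.67, and *Guf1*, a GTPase of the elongation step, at -0.71. Of 17 mitochondrial aminoacyl-tRNA synthetases 6 were called higher and 2 lower (median 0.22), between *Fars2* at 2.18 and *Nars2* at -1.41. Of the 4 genes of mitochondrial transcription *Polrmt*, the RNA polymerase, and *Tefm* were called higher, at 2.23 and 1.29, and *Tfb2m* lower, at -0.79. In JNK3 KO no gene of these 5 lists was called in either direction, where 4.33% of all genes were called higher and 6.10% lower.

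The values of the genes whose proteins the mitoribosome makes went another way. Of the 13 protein genes of mitochondrial DNA 3 were called higher and 8 lower in WT after NMDA, with a median log2 fold change of -0.70, from *mt-Nd4l* at -2.26 to *mt-Co2* at 1.08. In sh*Pax6* 0 were called higher and 7 lower (median -0.33), and in JNK3 KO 6 higher and 0 lower (median 0.33). In WT, *mt-Atp8* went from 8120 and 7794 FPKM with PBS to 2005 and 1913 with NMDA. Over the same libraries *mt-Atp6* went from 522 and 504 up to 795 and 832. How reads were split among the genes of mitochondrial DNA was not tested, so these values need not be levels of separate mRNAs. Nuclear genes for the respiratory chain were set beside the members as a comparison. Of 84 tested, 80 were called higher in WT (median 1.52), 18 higher in sh*Pax6* (median 0.09) and 24 lower in JNK3 KO (median -0.26), with 0 in the other direction each time. Of 77 cytosolic ribosomal protein genes tested, all 77 were called higher in WT (median 2.11), 74 in sh*Pax6* (median 0.48), and 9 in JNK3 KO, where 1 was called lower (median 0.04). Of all tested genes, 26.0% were called higher and 33.8% lower in WT. In sh*Pax6* these shares were 19.1% and 11.0%, and in JNK3 KO 4.33% and 6.10%. The 18 respiratory chain genes called higher in sh*Pax6* were thus near the share of all genes.

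Many members share their start region with another gene. For 33 of the 78 members (42.3%) a protein-coding neighbour on the other strand starts within 1000 bases in GENCODE M21, against 15.0% of 13890 tested protein-coding genes. Of these neighbours 29 were tested, and 16 were called higher and 4 lower in WT after NMDA, where 26.0% of all genes were called higher and 33.8% lower. The median log2 fold change was 0.68 over these neighbours and 1.31 over the members of the same pairs. *Mrpl46* and *Mrps11* are each other's neighbour and so are counted on both sides. They were called higher at 1.59 and 1.23, and their windows are printed above. *Mrpl49* is paired with *Fau*, a gene of the cytosolic ribosome, at 0.93 and 2.29, and *Mrpl48* with *Rab6a*, a GTPase of Golgi transport, at 0.95 and -0.84, both pairs chosen after their values were seen. Since the counting is not stated to use strand, reads from overlapping ends of such pairs cannot be assigned with certainty. Near-identical copies limit some values as well. *Mrpl23-ps1*, a copy left out by the rule, had 18.7 and 17.1 FPKM in WT with PBS and 105.7 and 88.01 with NMDA, so reads of *Mrpl23* (27.6 and 27.4, then 109 and 125 FPKM) may be split between them.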

How the data were processed

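The authors made the libraries with a TruSeq mRNA kit from oligo-dT primed retinal RNA, sequenced paired ends, aligned with STAR 2.7.1a to GRCm38.p6 and estimated abundance with RSEM 1.3.3, per the study's methods and the submitters' processing notes. The deposited values are FPKM per gene and per transcript, and the authors' own tests used edgeR 3.36.0 in R 4.1.0. FPKM hold no counts, so no count model was used here and the depth behind a value is unknown.

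Here, the 16471 genes whose mean passed 1 FPKM in 1 or more of 6 groups (all 78 members among them) were put on log2(FPKM + 0.1). Fold changes on this scale understate those of low genes. limma 3.58.1 in R 4.3.3 (lmFit, eBayes with an intensity trend) estimated a mean for each of 6 groups, leaving 6 residual degrees of freedom, and p-values were adjusted by Benjamini-Hochberg over all genes. A gene was called at an adjusted p under 0.05 with no minimum fold. Nothing in the labels says that the 2 libraries of a group come from separate animals, so p-values measure only the spread between these libraries. Genes were matched by Ensembl ID to GENCODE M21 (55227 of 55487), transcripts likewise (141469 of 142699), and a gene's length is that of its transcripts weighted by mean FPKM. Promoter windows of 300 bases around each start are RefSeq's. Python 3.11.15 with pandas 2.3.3, scipy 1.17.1 and matplotlib 3.10.9 made the tables and figures.

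The members, gene lists, motifs and tests were chosen with earlier results of these data known. Members named with values are the 5 highest and 3 lowest in WT PBS, the 3 largest rises and falls of each comparison among those called without overlap, the 3 largest differences of responses, examples of structural groups, and those said to be chosen after their values were seen. Of other genes of mitochondrial translation, only list counts and extremes among those called are named. The alternatives were a pseudocount of 1, no filter, TPM scaling, removal of each library's trend on length (lowess span 0.3), protein-coding transcripts alone, the spread of the compared groups alone, a block for replicate number, thresholds like those of the study (unadjusted p under 0.05 and an absolute log2 fold change above 1, without the study's further limit on the ratio of variance to mean) and the omission of single libraries, where the lone library that stays in its group is assumed to vary like the other groups. The fit and the length correction were tested on simulated data with known changes. ChIP-seq was not analysed here.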

Additional observations from a re-analysis of the deposited data

Results flagged for a closer look

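The NMDA response differed between genotypes, by the test of the difference itself in limma at an adjusted p under 0.05, for 67 members between WT and sh*Pax6* and for 70 between WT and JNK3 KO. Of all tested genes, 18.3% had a larger response in WT than in sh*Pax6* and 31.4% a smaller one. Against JNK3 KO these shares were 23.5% and 27.9%. Among the members named by the rule, the response of WT exceeded that of sh*Pax6*, as a difference of log2 fold changes, for *Mrpl16* (0.62), *Mrpl20* (1.45), *Mrpl34* (1.65), *Mrpl49* (1.34), *Mrpl52* (1.43), *Mrpl54* (1.77), *Mrpl58* (1.47), *Mrps11* (1.89), *Mrps16* (1.97), *Mrps18b* (1.79), *Mrps21* (1.62), *Mrps25* (1.24), *Mrps30* (0.78) and *Mrps33* (1.61). It exceeded that of JNK3 KO for *Mrpl16* (0.86), *Mrpl20* (1.55), *Mrpl34* (1.82), *Mrpl49* (1.23), *Mrpl52* (2.36), *Mrpl54* (2.05), *Mrpl58* (1.97), *Mrps11* (1.57), *Mrps16* (2.31), *Mrps18b* (1.55), *Mrps21* (2.28), *Mrps22* (0.84), *Mrps25* (2.32), *Mrps30* (0.77) and *Mrps33* (1.74). All of these rest on the same pair of WT NMDA libraries, and the WT values move with transcript length. On protein-coding transcripts alone the difference of *Mrps25* from sh*Pax6* was not called, as given above. What part of these differences goes with length, scaling or the other cells in those libraries was not tested beyond the alternatives given below.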

How the results depend on the processing

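In WT, the count of members called higher after NMDA stayed at 53 to 73 of 78 under every alternative, and its median stayed positive. Counts of 72 (WT), 67 (WT against sh*Pax6*) and 70 (WT against JNK3 KO) became 71 to 73, 64 to 66 and 68 to 71 when 1 library was left out, with 0 lower each time. Without a low-value filter sh*Pax6* PBS against WT PBS gave 4 higher and 1 lower. A pseudocount of 1 gave 2 higher in JNK3 KO PBS. TPM scaling gave 2 lower in WT, 1 lower in JNK3 KO after NMDA, and 3 and 2 smaller responses in WT than in sh*Pax6* and JNK3 KO. With the length trend removed there was 1 lower in WT, 3 higher and 8 lower in sh*Pax6*, 3 higher in sh*Pax6* PBS, 0 higher in JNK3 KO PBS, 38 and 31 larger and 1 and 1 smaller responses in WT, and the medians of sh*Pax6* and JNK3 KO after NMDA turned to -0.03 and 0.04. Protein-coding transcripts alone gave 1 lower in WT, 2 in sh*Pax6*, 1 in JNK3 KO and 2 smaller responses in WT than in sh*Pax6*. With the spread from the compared groups alone, sh*Pax6* after NMDA gave 0 and 0, JNK3 KO 4 lower, sh*Pax6* PBS 1 higher and 0 lower, and JNK3 KO PBS 0. Thresholds on unadjusted p and fold like the study's gave 3 higher and 0 lower in sh*Pax6* after NMDA and 0 in all PBS comparisons. The cause was not tested except where the setting itself removes it. Shares of all genes called were computed for the main fit and, for NMDA in WT only, with the length trend removed and with TPM scaling. The other counts in this section have no such share beside them.

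Leaving out 1 library gave, for sh*Pax6* after NMDA, 7 to 17 higher and 1 to 6 lower, for JNK3 KO after NMDA 0 higher and 0 to 4 lower, for sh*Pax6* PBS 1 to 14 higher and 0 to 2 lower, and for JNK3 KO PBS 0 to 5 higher and 0 lower. Libraries with the same replicate number did not deviate together (15 pairs, r from -0.10 to 0.09). This shows no shared shift by number, but with 2 libraries a group it cannot exclude that the numbers pair the samples. With a replicate block the count for JNK3 KO PBS was 2 and no other count moved by more than 1.5 times. Precision is limited by 2 libraries a group and an unknown read depth.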
